A study of Mus musculus with 6 samples.

Results

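Cytosolic sulfotransferases are the enzymes that attach a sulfate group to small molecules in the cell's cytosol, and 10 of them are described here in mouse liver: Sult1a1, Sult1b1, Sult1d1, Sult1c2, Sult2a1, Sult2a2, Sult2a7, Sult2a8, Sult3a1 and Sult5a1. They were chosen as the rows of the expression tables whose gene symbol is 1 of these names, 10 of 24927 rows, a choice made with expression values of the same libraries known. Their differences between the groups are therefore given as a description, without a p-value. RNA-seq of whole liver was done on 6 libraries from mice of the inbred strain C57BL/6, all labelled male, 10 months old and kept on a chow diet. The 3 libraries labelled Cdkl3 knockout came from mice in which Cdkl3, which encodes a kinase related to the cyclin-dependent kinases, was knocked out in the liver, and the 3 libraries labelled wild type are their controls. How the knockout was made, and in which liver cells, is not given in the sources used here. Values are FPKM, the fragments assigned to a gene per kilobase of its transcript, scaled to all mapped fragments, as the authors deposited them.

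Sulfotransferases take the sulfate from the donor 3′-phosphoadenosine 5′-phosphosulfate (PAPS) and pass it to a hydroxyl or amino group, which usually makes the product more soluble in water and easier to excrete. The SULT1 enzymes act mainly on phenols, among them thyroid hormones, catecholamines, estrogens and many drugs, while the SULT2A enzymes act on the hydroxyl groups of steroids and bile acids, and mouse SULT3A1 sulfates amines. In mouse liver several Sult2a genes and Sult3a1 are known to be expressed mainly in females, and the family as a whole responds to nuclear receptors for bile acids, steroids and foreign compounds.

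The coding sequence of the loop that holds the 3′-phosphate of PAPS shows how much alike the genes are that the results turn on. The 60 bases below are from GENCODE M21 transcripts, 5′ to 3′, and capitals mark bases that differ from Sult2a1, or for Sult3a2 from Sult3a1.
Sult2a1: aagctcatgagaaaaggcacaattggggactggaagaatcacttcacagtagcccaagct
Sult2a3: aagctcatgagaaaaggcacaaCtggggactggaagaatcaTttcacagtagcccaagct
Sult2a2: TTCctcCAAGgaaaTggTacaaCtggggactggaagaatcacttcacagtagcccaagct
Sult2a7: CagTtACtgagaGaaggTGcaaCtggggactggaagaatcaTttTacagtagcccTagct
Sult2a8: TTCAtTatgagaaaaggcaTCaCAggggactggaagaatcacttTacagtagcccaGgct
Sult3a1: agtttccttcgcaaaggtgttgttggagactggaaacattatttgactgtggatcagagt
Sult3a2: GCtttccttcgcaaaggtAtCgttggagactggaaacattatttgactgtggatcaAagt
Sult2a3, a close relative outside the 10, differs from Sult2a1 at 2 of the 60 bases, whereas Sult2a7 and Sult2a8 each differ at 11. Sult2a2 differs at 10, all in the first part of the stretch, but its M21 model holds only 582 coding bases against 855 for Sult2a1. Over the whole coding sequence Sult2a1 was 93.7% identical to Sult2a3 and 94.9% to Sult2a5, against 70.8% to Sult2a7 and 68.0% to Sult2a8. Sult3a1 and Sult3a2 were 90.9% identical. Of all 100-base windows of its transcript, Sult2a2 shared 34.6% letter for letter with another gene, Sult2a1 shared 11.4%, Sult1a1 shared 2.35% with the predicted gene Gm6939, and the other 7 listed genes shared none. The read length is not given in the sources used here, and values of Sult2a1 and Sult2a2 are uncertain to the extent that reads could be split between such copies.

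Several of the genes are neighbours, with positions given here on GRCm38 with GENCODE M21. All Sult2a genes lie on chromosome 7, where Sult2a2 (chr7:13733505-13779636, plus strand) and Sult2a1 (chr7:13796246-13837409, minus strand) are neighbours, and Sult2a8 (chr7:14410686-14446769) and Sult2a7 (chr7:14465051-14494230) follow, both on the minus strand. Sult1b1 (chr5:87513339-87538195) and Sult1d1 (chr5:87554645-87569027) are neighbours on the minus strand of chromosome 5. Sult3a1 (chr10:33857721-33879532, plus strand) lies beside Sult3a2 (chr10:33766424-33786704, minus strand). Sult1a1 (chr7:126672865-126676432), Sult1c2 (chr17:53829637-53846339) and Sult5a1 (chr8:123140192-123158315) are on the minus strand.

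The libraries labelled knockout held 24530000, 39550000 and 26720000 counted reads in replicates 1 to 3 and those labelled wild type 36040000, 48610000 and 20460000, as recovered from the FPKM steps. Mitochondrial transcripts took 63.2% to 70.1% of all FPKM in the libraries labelled knockout and 70.5% to 73.9% in those labelled wild type. The targeted gene did not separate the groups: Cdkl3 measured 0.0761, 0.146 and 0.196 FPKM (10, 31 and 28 reads) in the libraries labelled knockout and 0.166, 0.0883 and 0.119 FPKM (32, 23 and 13 reads) in those labelled wild type. Such values, given over a whole gene, would miss a deletion of only some exons. Sex-linked genes did separate them, although every mouse is labelled male. Xist, the RNA of the inactive X chromosome, measured 0.0273, 0.0240 and 0.0125 FPKM in the libraries labelled knockout, against 277, 192 and 292 FPKM in those labelled wild type. The Y-linked gene Ddx3y measured 50.8, 38.2 and 46.1 FPKM in the libraries labelled knockout and 0.0694, 0.0831 and 0.207 FPKM in those labelled wild type, and Eif2s3y had the same direction. For every sulfotransferase below, the labelled genotype and the difference in sex-linked expression cannot be told apart. Of the hepatocyte markers Alb, Apob and Cyp2e1 were high in all 6 libraries, while Apoa1 was at most 1.94 FPKM and Ass1 at most 0.152 FPKM, so a low value in these tables does not by itself show a silent gene.

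Of the 10 genes 9 passed the filter for testing, at least 1 FPKM in at least 3 libraries. A gene is called higher or lower here when its limma adjusted p over all 5673 tested genes was under 0.05. Sult1a1 alone was called higher in the libraries labelled knockout, where 33.7% of all tested genes were called higher. Another 6 were called lower (Sult1b1, Sult1d1, Sult2a1, Sult2a2, Sult2a7 and Sult3a1), where 20.4% of all tested genes were. In either direction 54.1% of all tested genes were called. The groups did not overlap in FPKM for these same 7 genes, and 63.9% of all tested genes did not overlap. Sult2a1, Sult2a2 and Sult3a1 passed this filter by the libraries labelled wild type alone, and the members were picked from these same differences, so nothing is read from the counts. The median log2 difference over the 9 was -0.90, against 0.12 over all tested genes.

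**Figure D1:**
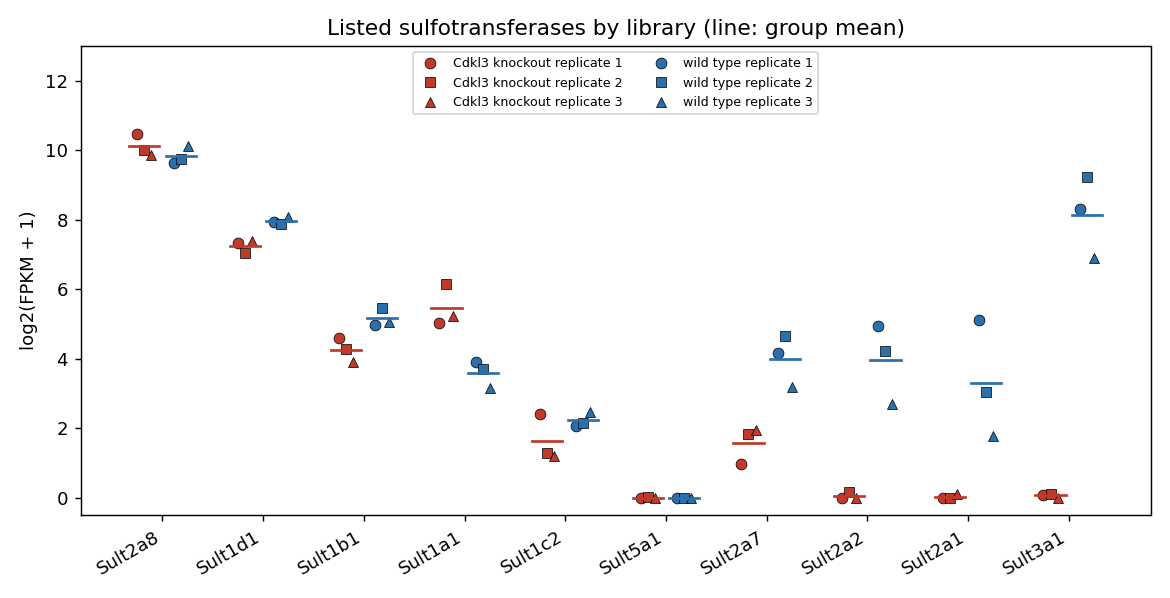
Level of the 10 sulfotransferases in each library, as log2(FPKM + 1) on the vertical axis, with the 3 libraries labelled knockout (red) left of the 3 labelled wild type (blue) for each gene and a line at each group mean. Sult3a1, Sult2a1 and Sult2a2 sit at or near 0 in all 3 libraries labelled knockout, while Sult2a8 lies near 10 in both groups.

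Hydroxysteroid and bile acid sulfotransferases of the 2A subfamily divided into 1 very abundant gene without a call and 3 genes that were low in the libraries labelled knockout. Sult2a8, reported in mouse to sulfate bile acids, measured 1412, 1027 and 937 FPKM in the libraries labelled knockout and 787, 866 and 1122 FPKM in those labelled wild type. The groups overlapped, since wild type replicate 3 lay above knockout replicates 2 and 3. Means were 1125 ± 252 FPKM in libraries labelled knockout and 925 ± 175 FPKM in those labelled wild type (SD, n = 3 each), a log2 difference of 0.28 (SE 0.24, 95% interval -0.27 to 0.82). Outside the mitochondrially encoded rows Sult2a8 had the ranks 13, 17 and 20 by FPKM in knockout replicates 1 to 3 and 16, 19 and 13 in wild type replicates 1 to 3. Its sign depended on the scaling. The difference was -0.01 after median centring, -0.01 after quantile normalization and -0.10 when each library was rescaled to its total outside mitochondrially encoded rows. It was 0.77, and called, when the GC trend of each library was removed.

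Sult2a1, the classical hydroxysteroid sulfotransferase that acts on dehydroepiandrosterone and bile acids, was listed at 0, 0 and 0.0734 FPKM in the libraries labelled knockout, against 33.4, 7.30 and 2.44 FPKM in those labelled wild type. These are 0, 0 and 2 reads in knockout replicates 1 to 3 and 1228, 362 and 51 reads in wild type replicates 1 to 3. Every library labelled knockout lay below every library labelled wild type, and wild type replicate 1 held most of the reads. The pooled read rate was 709 times lower in the libraries labelled knockout, with an exact binomial 95% interval of 196 to 5858 that covers counting error only. The log2 difference was -3.28 (SE 0.82), and the call was lost when knockout replicate 1, 2 or 3 was left out. The difference then stayed between -3.31 and -3.26, which says little, since every library labelled knockout was at or near 0. Over 16 alternative settings the difference ran from -6.16 to -2.38.

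Sult2a2, another hydroxysteroid sulfotransferase, measured 0, 0.136 and 0 FPKM in the libraries labelled knockout and 29.8, 17.7 and 5.47 FPKM in those labelled wild type. Its 4 reads in the libraries labelled knockout all came from replicate 2, against 796, 636 and 83 reads in wild type replicates 1 to 3. The pooled rate was 327 times lower in the libraries labelled knockout (exact binomial 95% interval 128 to 1202), and the log2 difference was -3.89 (SE 0.52). Between Sult2a1 and Sult2a2 the order differed within the group labelled wild type: Sult2a2 stood at 0.892 times Sult2a1 in replicate 1, but at 2.42 and 2.24 times in replicates 2 and 3.

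Sult2a7 kept a measurable level in the libraries labelled knockout. It had 0.957, 2.59 and 2.90 FPKM (30, 131 and 99 reads) there, against 16.8, 24.3 and 8.18 FPKM (774, 1508 and 214 reads) in the libraries labelled wild type. Means were 2.15 ± 1.04 FPKM in libraries labelled knockout and 16.4 ± 8.05 FPKM in those labelled wild type (SD, n = 3 each). Its pooled read rate was 8.29 times lower in the libraries labelled knockout (exact binomial 95% interval 7.30 to 9.46). This interval lies below those of Sult2a1 and Sult2a2, but all of them cover counting error only. The log2 difference of Sult2a7 was -2.41 (SE 0.41). Its 95% interval, which includes the spread between libraries, was -3.4 to -1.5. That overlapped those of Sult2a1 (-5.3 to -1.3) and Sult2a2 (-5.1 to -2.7).

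Sult3a1, which sulfates amines in mouse, had the lowest log2 difference of the 5651 tested genes whose symbol no other row shares. It measured 0.0705, 0.0875 and 0 FPKM in the libraries labelled knockout, against 314, 600 and 118 FPKM in those labelled wild type. That is 6 reads in all in the libraries labelled knockout and 13082, 33718 and 2801 reads in wild type replicates 1 to 3. In the libraries labelled knockout it was at the level of single reads, while in those labelled wild type only Sult2a8 had a higher mean of the 10. The pooled read rate was 7141 times lower in the libraries labelled knockout (exact binomial 95% interval 3281 to 19460), and the log2 difference was -8.07 (SE 0.53, 95% interval -9.32 to -6.82). Over 17 alternative settings the log2 difference ran from -10.90 to -7.33. Its call was kept, but nothing is read from that, since Sult3a1 passed the filter by the libraries labelled wild type alone. In bulk tissue, fewer cells of a type that express a gene and less RNA of the gene per cell cannot be told apart, for Sult3a1 as for the others.

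Among the SULT1 enzymes, which sulfate phenols, Sult1a1 stood apart by its direction. This gene for the main phenol sulfotransferase measured 31.6, 69.6 and 36.9 FPKM in the libraries labelled knockout and 14.0, 12.0 and 7.88 FPKM in those labelled wild type. The lowest library labelled knockout was above the highest labelled wild type, and knockout replicate 2 was the highest of its group. Means were 46.1 ± 20.6 FPKM in libraries labelled knockout and 11.3 ± 3.13 FPKM in those labelled wild type (SD, n = 3 each), and the pooled read rate was 4.18 times higher in the libraries labelled knockout. The log2 difference was 1.88 (SE 0.32, 95% interval 1.14 to 2.63), and it ran from 1.10 to 2.11 over 17 alternative settings. Its call was kept, but nothing is read from that, since the members were picked with these differences known. Summed hepatocyte markers were also higher in each library labelled knockout. Their sum over the 9 of 10 with a usable row was 3986, 5519 and 4440 FPKM in the libraries labelled knockout and 2578, 1830 and 2106 FPKM in those labelled wild type. Apob, the largest of them in each library labelled wild type, did not share that direction. Its means were 1057 FPKM in libraries labelled knockout and 1168 FPKM in those labelled wild type. Of the hepatocyte markers Ass1 was listed at 0 in wild type replicate 1 and Apoa1 in wild type replicate 2. Their part in the Sult1a1 difference was not tested.

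Sult1d1, which acts on catecholamines such as dopamine in mouse, was abundant in every library. It had 160, 132 and 166 FPKM in the libraries labelled knockout and 243, 233 and 270 FPKM in those labelled wild type, without overlap. Means were 153 ± 18.4 FPKM in libraries labelled knockout and 249 ± 19.2 FPKM in those labelled wild type (SD, n = 3 each), and the log2 difference was -0.70 (SE 0.18, 95% interval -1.11 to -0.30). Sult1b1, known for thyroid hormones and small phenols, measured 23.4, 18.6 and 13.9 FPKM in the libraries labelled knockout and 30.6, 43.0 and 32.3 FPKM in those labelled wild type, and it did not overlap either. Its log2 difference was -0.90 (SE 0.23, 95% interval -1.43 to -0.37). Sult1b1 is also a gut enzyme, and 5 of 8 intestinal markers with a usable row summed to 28.8, 58.0 and 29.9 FPKM in the libraries labelled knockout against 7.83, 4.55 and 3.01 FPKM in those labelled wild type. Fabp2 was the largest part of that sum in each library, and Sis and Muc2 were listed at 0 in 5 of 6 libraries. Their part in the Sult1b1 difference was not tested.

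Sult1d1 and Sult1b1 have transcripts low in GC, and both lost their call when a trend on GC content was taken out of each library. Sult1d1 has 33.5% GC, with 0.415% of tested genes lower, and Sult1b1 has 37.4%, with 2.83% lower. Of the 5539 tested genes with a GC value, the 563 below 40% GC had a median log2 difference of -0.45 (knockout minus wild type), and 41.7% of them were called lower. In the 734 genes between 50% and 55% GC the median was 0.66, and 12.3% were called lower. With each library's GC trend removed, the difference was 0.07 for Sult1d1 and -0.38 for Sult1b1, and neither was called. With GC and length trends removed it was -0.08 for Sult1d1 and -0.48 for Sult1b1, again without a call. Sult2a8 has 37.8% GC, with 3.52% of tested genes lower, and its difference was 0.28 as deposited. With the GC trend removed it was 0.77, and called. Sult3a1 has 34.2% GC, close to Sult1d1, and its difference was -7.33 with the GC trend removed and -7.72 with both removed. Sult1a1, at 48.6% GC, was at 1.44 with the GC trend removed and 1.10 with both removed. The part of GC content in these differences was not tested.

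**Figure D2:**
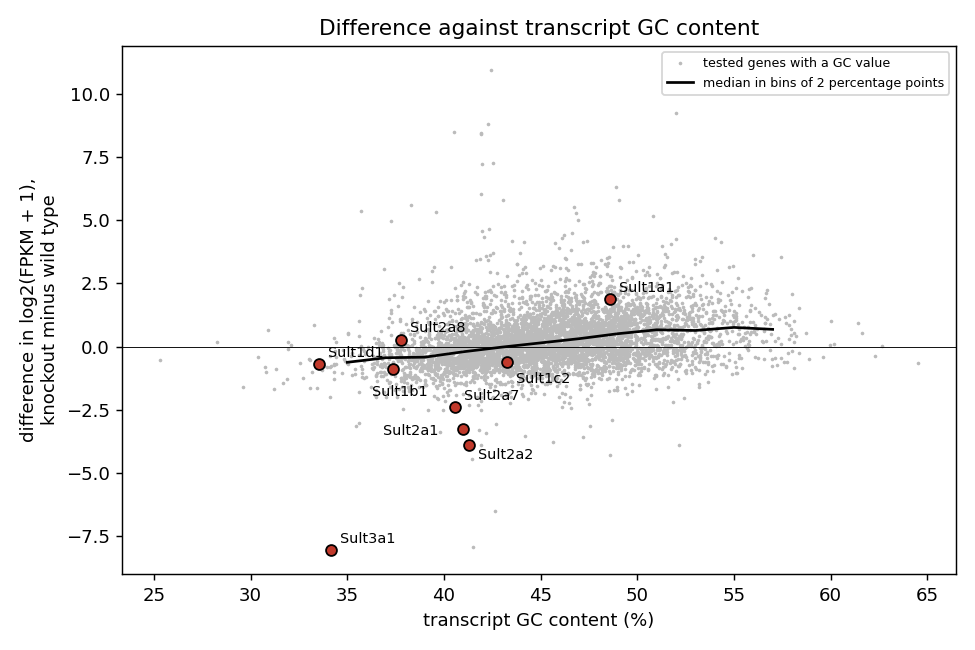
Difference in log2(FPKM + 1), knockout minus wild type, against transcript GC content in percent, for tested genes with a GC value (grey), with the median in bins of GC content (line) and the 9 tested sulfotransferases (red). The line is below 0 at low and above 0 at high GC content. Sult1d1 and Sult1b1 lie close to it at the low end, and Sult2a8 lies above it. Sult3a1, Sult2a1, Sult2a2 and Sult2a7 lie far below it.

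Sult1c2, a phenol sulfotransferase of the 1C subfamily, was the least abundant of the 4 SULT1 genes among the 10. It had 4.31, 1.47 and 1.32 FPKM in the libraries labelled knockout and 3.23, 3.50 and 4.53 FPKM in those labelled wild type. Knockout replicate 1 lay among the libraries labelled wild type, the other knockout replicates lay below them, and there was no call (log2 difference -0.60, SE 0.31, 95% interval -1.32 to 0.13). Without knockout replicate 1 the difference was -0.98, and it was called. That library also held kidney transcripts. The 10 of 16 kidney tubule markers with a usable row summed to 5332 FPKM in knockout replicate 1, to 4.56 and 6.09 FPKM in knockout replicates 2 and 3, and to 0.766 to 2.78 FPKM in the libraries labelled wild type. Most of this was Kap with 5264 FPKM, but Slc7a13 measured 35.3 FPKM, Calb1 16.6 FPKM and Slc12a1 9.77 FPKM there as well, and Napsa alone was listed at 0. Sult1c2 and Sult1d1 are also known from mouse kidney, and the part of these transcripts in the value of knockout replicate 1 was not tested. Sult5a1 was listed at 0 in every library but knockout replicate 2, where it had 0.0114 FPKM or 2 reads, and it was under the filter.

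**Figure D3:**
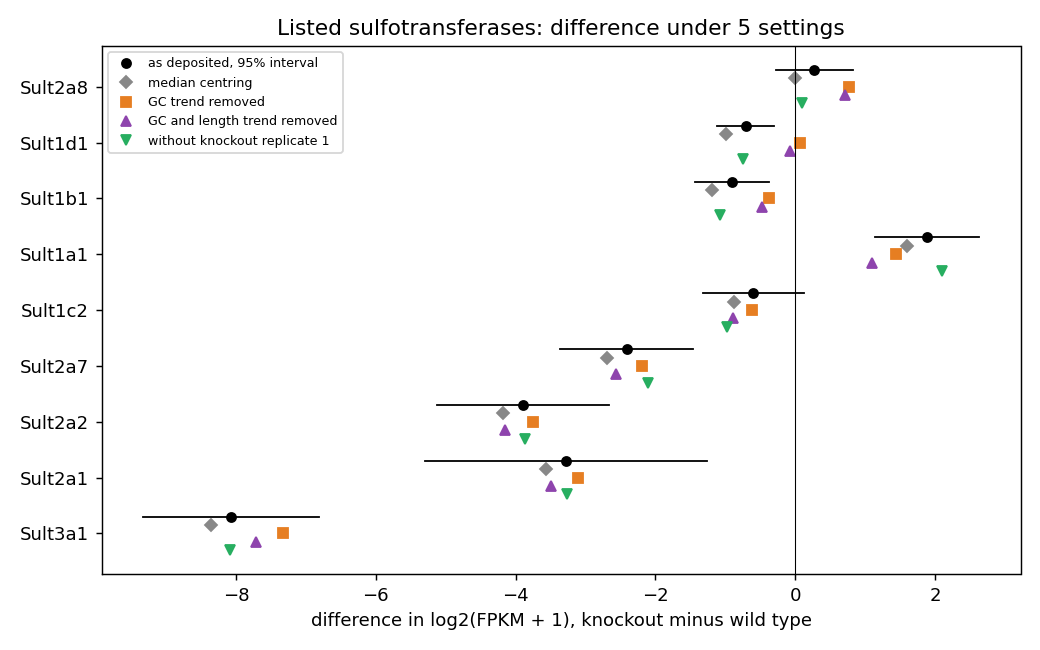
Difference in log2(FPKM + 1), knockout minus wild type, for the 9 tested sulfotransferases under 5 settings, with the 95% interval of the values as deposited (black). Sult5a1 was under the filter and is not shown. Sult1d1 and Sult2a8 cross 0, and the other genes shown keep their sign under all 5 settings.

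The summed level of the 10 genes overlapped between the groups, while the share of Sult2a8 in it did not. Summed FPKM was 1632, 1251 and 1158 in the libraries labelled knockout and 1471, 1806 and 1571 in those labelled wild type. Sult2a8 made up 86.5%, 82.1% and 80.9% of it in the libraries labelled knockout and 53.5%, 47.9% and 71.4% in those labelled wild type. Sult3a1 held at most 0.00699% of the sum in any library labelled knockout, against 21.3%, 33.2% and 7.54% in wild type replicates 1 to 3. Without Sult2a8 the other 9 genes summed to 221, 224 and 221 FPKM in the libraries labelled knockout and 685, 940 and 449 FPKM in those labelled wild type. In the libraries labelled knockout the order of the means was Sult2a8, Sult1d1, Sult1a1, Sult1b1, Sult1c2 and Sult2a7, with the other 4 genes at means of 0.0527 FPKM or less, and among these first 6 neighbours only Sult1c2 and Sult2a7 overlapped in their libraries. The order in the libraries labelled wild type was Sult2a8, Sult3a1, Sult1d1, Sult1b1, Sult2a2, Sult2a7, Sult2a1, Sult1a1, Sult1c2 and Sult5a1. Neighbours whose libraries overlapped in that order were Sult3a1 with Sult1d1, and Sult2a2, Sult2a7 and Sult2a1 each with the next.

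**Figure D4:**
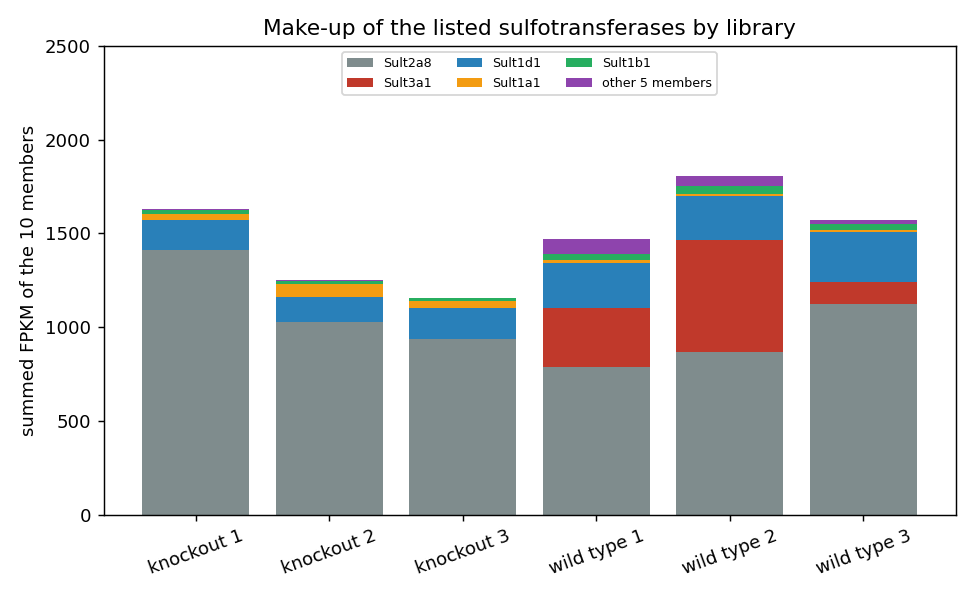
Summed FPKM of the 10 sulfotransferases in each library, stacked by gene, with the 3 libraries labelled knockout on the left and the 3 labelled wild type on the right. Sult2a8 (grey) is the largest part in all 6 bars, and Sult3a1 (red) is visible only in the libraries labelled wild type, where it ranges from 118 to 600 FPKM.

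Of the 9 tested members, the 4 with the most negative differences also varied most among the libraries labelled wild type. The highest over the lowest of those 3 libraries was 13.7 for Sult2a1, 5.45 for Sult2a2, 5.07 for Sult3a1 and 2.97 for Sult2a7, against 1.16 to 1.78 for Sult1d1, Sult1b1, Sult1c2, Sult2a8 and Sult1a1. A range as large on the log2 scale was found in 0.336% of tested genes for Sult2a1, 0.832% for Sult2a2, 0.761% for Sult3a1 and 2.21% for Sult2a7. Rows sharing a symbol were left out of these shares. Wild type replicate 3, the least deeply sequenced library, was the lowest of its group in each of these 4 genes, but wild type replicate 1 was the highest for Sult2a1 and Sult2a2 and wild type replicate 2 for Sult3a1 and Sult2a7.

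Profiles over the 6 libraries were set beside those of tested genes by the root mean square difference of centred log2(FPKM + 1). Predicted gene models and rows sharing a symbol were left out. The comparison is a description that uses the same libraries as the choice of the members. Sult2a1 was nearest to Sult2a2 (0.52), then Cyp3a44 (0.66) and Sult2a3 (0.74). Sult2a2 was nearest to Cyp3a44 (0.41), a cytochrome P450, then Sult2a1 (0.52) and Acot3 (0.61), an acyl-CoA thioesterase. Sult3a1 was nearest to Xist (0.85), then to the organic anion transporter genes Slc22a26 (1.10) and Slc22a27 (1.97). The nearest to Sult2a7 was Dcn (0.44), a stellate cell marker, followed by Stap1 (0.47) and Cyp2c39 (0.51). The 4 stellate markers, none of them at 0, summed to 21.3, 30.1 and 32.2 FPKM in the libraries labelled knockout. In those labelled wild type they summed to 76.1, 129.7 and 82.8 FPKM. Dcn itself was the largest part of that sum in each library. Lrat and Reln were also lower in the libraries labelled knockout, while Col1a1 was not (means 0.052 FPKM there and 0.026 FPKM in wild type). The part of these markers in the Sult2a7 difference was not tested. Sult1a1 was nearest to the secreted liver proteins Serpina10 (0.13) and Alb (0.17) and to Fcf1 (0.18). Genes nearest to Sult1d1 were Zfp148 (0.04), Apc (0.05) and Mier3 (0.06), nearest to Sult1b1 Ddx60 (0.11), Them7 (0.12) and Malat1 (0.13), nearest to Sult1c2 Bach1 (0.13), B3galt1 (0.14) and Ttc39b (0.14), and nearest to Sult2a8 Plcxd2 (0.10), Nqo2 (0.11) and Naf1 (0.12).

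Promoters are shown for the genes with the lowest and the highest difference, Sult3a1 and Sult1a1, as the 250 bases before the RefSeq start on GRCm38.p6, 5′ to 3′ on the strand of the gene. Capitals mark TTCNNNGAA, the core of the motif bound by STAT5, the factor through which growth hormone acts in liver.
Sult3a1 (chr10:33857472-33857721, plus strand): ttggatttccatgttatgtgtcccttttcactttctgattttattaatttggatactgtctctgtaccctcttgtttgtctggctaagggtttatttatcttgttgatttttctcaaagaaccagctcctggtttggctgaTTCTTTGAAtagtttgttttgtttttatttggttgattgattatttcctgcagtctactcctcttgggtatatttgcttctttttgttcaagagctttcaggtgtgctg
Sult1a1 (chr7:126676419-126676668, minus strand): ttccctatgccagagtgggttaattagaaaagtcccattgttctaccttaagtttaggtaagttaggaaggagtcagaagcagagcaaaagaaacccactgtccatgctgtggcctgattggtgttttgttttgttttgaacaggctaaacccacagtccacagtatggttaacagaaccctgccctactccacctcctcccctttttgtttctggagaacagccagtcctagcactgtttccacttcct
TTCNNNGAA, which reads alike on both strands, was found 1 time before Sult3a1, with its first base at -109 from the start, and 0 times before Sult1a1. Sult3a2, Sult2a3 and Sult2a5 were also at or near 0 in the libraries labelled knockout, and their windows held TTCNNNGAA 0 times. Of 32851 promoter windows of this length 7.02% hold it. AGGTCA, a core element in the sites of many nuclear receptors, was searched on both strands. It was found 0 times in either window shown, and 14.0% of all windows hold it. A match is a run of letters and not a binding site, and its absence says only that these letters are not in this window.

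Sulfotransferases outside the 10 were taken from a list of 11, of which 9 had a usable row and 3 were tested. Of these 2 were called lower and 0 higher, against 20.4% and 33.7% of all tested genes. The median log2 difference of the 3 was -2.07. Both called genes, Sult3a2 and Sult2a3, passed the filter by the libraries labelled wild type alone, so no p is given for them and nothing is read from the count. Sult3a2, the neighbour of Sult3a1, was listed at 0 in the 3 libraries labelled knockout and measured 8.71, 17.1 and 2.21 FPKM in those labelled wild type. With 0 reads against 292, 771 and 42 it was at least 318-fold lower in the libraries labelled knockout, taking 3 reads over the group as the floor (log2 difference -3.05, SE 0.58). Within the libraries labelled wild type Sult3a1 was 36.0, 35.2 and 53.7 times as high as Sult3a2. Sult2a3 had 0.120, 0 and 0 FPKM in the libraries labelled knockout and 7.71, 2.97 and 1.39 FPKM in those labelled wild type (log2 difference -2.07, SE 0.42). Sult2a5 stood at 0 reads in the libraries labelled knockout against 86, 47 and 5 reads in those labelled wild type, at least 39.7-fold lower over the group, and was under the filter. Sult1e1, the estrogen sulfotransferase, overlapped between the groups, with 0.197, 0.489 and 2.05 FPKM in the libraries labelled knockout and 1.54, 1.09 and 0.157 FPKM in those labelled wild type (log2 difference -0.06, SE 0.41, 95% interval -1.04 to 0.92, limma adjusted p = 0.92). Sult1c1, Sult2a4, Sult2a6, Sult6b1 and Sult6b2 were at 0.416 FPKM or less in every library.

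The supply of PAPS was described by 7 listed genes, 5 with a usable row and 4 tested, of which 1 was lower and 0 higher, with a median log2 difference of -0.17. The share called lower is near that of all tested genes, 20.4%, and 33.7% of all tested genes were called higher. Papss2, the PAPS synthase best known from liver, fell to 95.3, 78.9 and 48.5 FPKM in the libraries labelled knockout, against 144, 137 and 164 FPKM in those labelled wild type (log2 difference -1.04, SE 0.26, limma adjusted p = 0.010). Every library labelled knockout lay below every library labelled wild type, and the call held under all alternatives except the adjusted p threshold of 0.01. Papss1, the other PAPS synthase, had a difference of 0.46 (SE 0.19, limma adjusted p = 0.066), which became -0.10 with the GC trend removed. Bpnt2, a Golgi phosphatase that breaks down the spent donor, differed by -0.20 (SE 0.19, adjusted p = 0.41), and Slc35b3, which carries PAPS into the Golgi, by -0.14 (SE 0.16, adjusted p = 0.49).

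Release of sulfate from cysteine and its uptake were covered by 15 genes, 13 with a usable row and 4 tested, with 2 higher, 0 lower and a median of 0.65, where 33.7% of all tested genes were higher and 20.4% lower. Suox, the sulfite oxidase that makes sulfate, measured 1.47, 2.32 and 1.62 FPKM in the libraries labelled knockout, against 0.567, 0.148 and 0.0783 FPKM in those labelled wild type (log2 difference 1.16, SE 0.19). It passed the filter by the libraries labelled knockout alone, so no p is given. With the GC trend removed its difference was 0.54. Cdo1, the cysteine dioxygenase at the start of that route, rose to 639, 815 and 753 FPKM in the libraries labelled knockout, against 379, 316 and 151 FPKM in those labelled wild type (log2 difference 1.48, SE 0.34, limma adjusted p = 0.0072). The Cdo1 call was lost after quantile normalization (0.88, adjusted p = 0.11) and with GC and length trends removed (0.62, adjusted p = 0.11). Got1 and Cth did not pass the test, with log2 differences of -0.33 and 0.15.

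Sulfatases remove sulfate again, and of 15 listed 12 had a usable row and 5 were tested, with 2 higher, 2 lower and a median of 0.41, where 33.7% of all tested genes were higher and 20.4% lower. Arsb, a lysosomal enzyme that acts on sulfated glycosaminoglycans, measured 2.26, 2.03 and 1.64 FPKM in the libraries labelled knockout, against 0.621, 0.825 and 0.745 FPKM in those labelled wild type (log2 difference 0.78, SE 0.14). It passed the filter by the libraries labelled knockout alone, so no p is given, and its call was lost after quantile normalization (0.37) and with the GC trend removed (0.21). Ids, the iduronate sulfatase, fell to 5.28, 4.61 and 6.19 FPKM in the libraries labelled knockout, against 12.9, 15.7 and 21.0 FPKM in those labelled wild type (log2 difference -1.45, SE 0.21, limma adjusted p = 0.00092). Arsk fell as well (log2 difference -0.89, SE 0.17, limma adjusted p = 0.0028). Golgi sulfotransferases, which act on proteins and glycans and not on small molecules, had 4 tested of 36 listed, 25 with a usable row. Of these 1 was higher and 0 lower, against 33.7% and 20.4% of all tested genes, and the median was 0.28. Tpst1, which sulfates tyrosines of proteins, was the 1 called (log2 difference 0.75, SE 0.13). It too passed the filter by the libraries labelled knockout alone, so no p is given, and its call was lost after quantile normalization (0.24) and with the GC trend removed (0.26).

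Of 17 receptors and factors reported to act on sulfotransferase genes 16 had a usable row and 10 were tested, with 4 higher, 2 lower and a median of 0.19, shares near those of all tested genes (33.7% higher and 20.4% lower). Nr1h4, the bile acid receptor FXR, rose to 16.3, 19.2 and 14.6 FPKM in the libraries labelled knockout, against 7.62, 4.64 and 5.22 FPKM in those labelled wild type (log2 difference 1.39, SE 0.21, limma adjusted p = 0.0010). Nfe2l2, the factor of the response to oxidants, fell to 28.2, 19.4 and 17.6 FPKM in the libraries labelled knockout, against 40.1, 49.6 and 56.5 FPKM in those labelled wild type (log2 difference -1.14, limma adjusted p = 0.0035). Both calls held under each of the 17 alternatives tried.

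**Figure D5:**
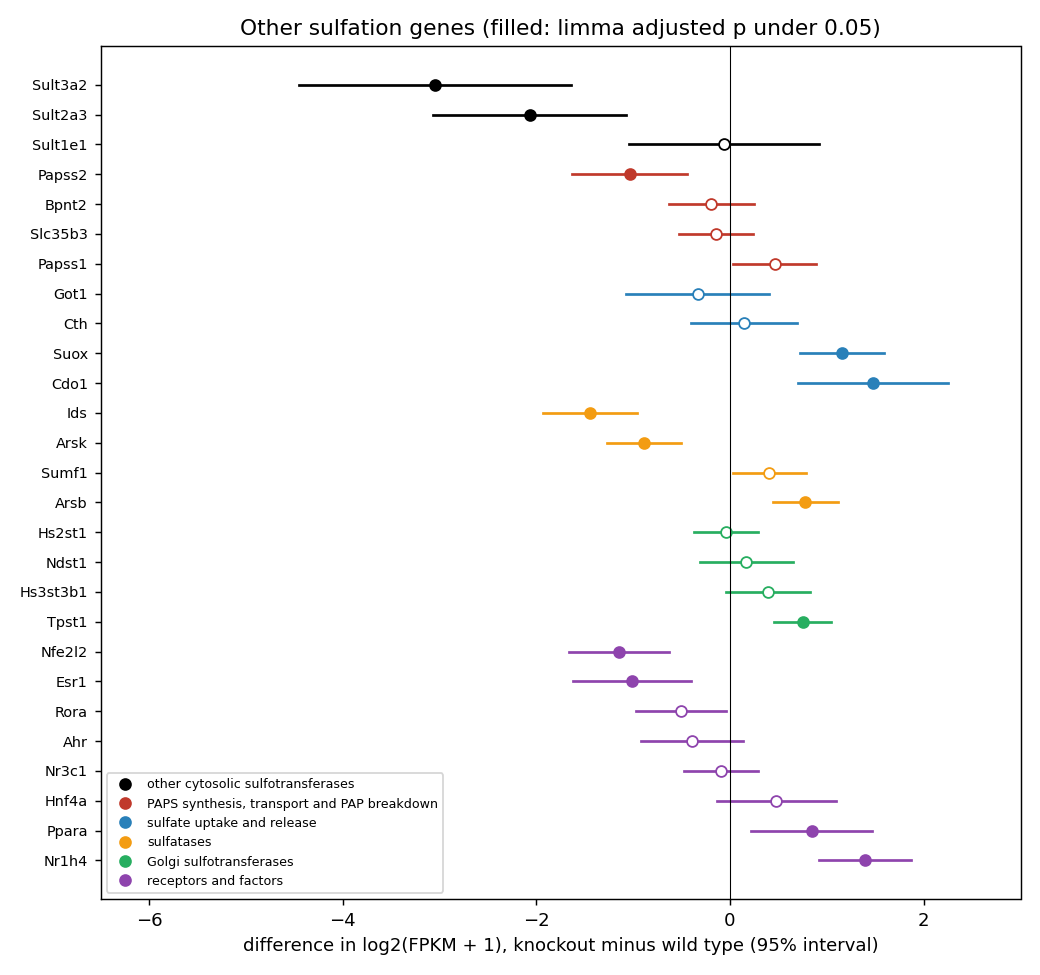
Difference in log2(FPKM + 1), knockout minus wild type, with its 95% interval, for tested genes of 6 lists around sulfation, coloured by list and filled where the limma adjusted p was under 0.05. Sult3a2, Sult2a3, Suox, Arsb and Tpst1 passed the filter by 1 group alone. The largest negative differences are those of Sult3a2 and Sult2a3, and the other lists hold differences on both sides of 0.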

How the data were processed

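The data are 6 tables of mouse liver RNA-seq, 3 labelled Cdkl3 knockout and 3 labelled wild type, from total RNA extracted with Trizol, per the labels' protocols. Each table holds 1 FPKM value per gene, deposited by the authors, per the file headers. HISAT2 and GRCm39 are named per the submitters' processing notes, and no source used here gives the counting tool, its annotation or the strand setting. The header of knockout replicate 3 carries another code than its title, and its label was followed.

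Identifier and symbol named the same gene in 0 of 24927 rows. Exon lengths from GENCODE M21, taken by symbol, turned 98.7% to 99.0% of low FPKM values on chromosomes other than 1 into whole reads (within 0.15 read, up to 40 reads), and 21 of 21 such sulfotransferase values. Symbols were therefore used. The 1787 rows of the chromosome 1 block, where this failed, and 119 further rows without a symbol were left out. The steps also gave the depth, from 20460000 to 48610000 reads. Read ratios have exact binomial (Clopper-Pearson) 95% intervals, which cover counting error only, with a floor of 3 reads over the group. These intervals take the recovered reads as independent, which was not tested. They are too narrow if both reads of a pair were counted.

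FPKM values are not counts, so limma 3.58.1 (R 4.3.3) was run on log2(FPKM + 1) with trend and robust moderation, two-sided. It took the 5673 genes that reached 1 FPKM in 3 or more libraries, and Benjamini-Hochberg adjusted p-values were taken over all of them. Differences on that scale understate the change of low genes. The fit was tested on simulated data. Labels give separate samples and do not say whether each is a different mouse, so p-values measure the spread between these samples, which may be technical.

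The members, the lists around them and the settings were chosen with earlier results of these data known. All 10 members are named, and of each list up to 4 genes with the smallest adjusted p, or untested sulfotransferases as values. A few genes picked by this rule are not reported here, in text or figure, though the counts include them. For each member with a mean of at least 1 FPKM the 3 tested genes with the nearest profile are named. Predicted gene models and rows sharing a symbol were left out of that ranking. Alternatives were another pseudocount, other filters and thresholds, no robust moderation, other scalings, a replicate block and leaving out each library. Removal of loess trends on GC content, alone or together with exon length, was added after seeing the data and was possible for 5539 genes (97.64%). Sequences are from GENCODE M21 transcripts (GRCm38) and RefSeq promoters (GRCm38.p6). Promoters of Sult2a1, Sult2a2 and Sult2a7 are not shown. Sult2b1 and Sult4a1 were not analysed here. Python 3.11.15 with pandas 2.3.3, scipy 1.17.1 and matplotlib 3.10.9 was used otherwise.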

Additional observations from a re-analysis of the deposited data

How the results depend on the processing

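With 3 libraries a group and unequal depth, genes at a few reads are known only to their counting intervals. Over all alternatives 133 of 149 member values kept their sign and their side of the threshold. Of the others 9 lost their call, 3 gained one and 4 changed sign. Of 488 such values for the other sulfation genes 417 stayed, 27 lost a call, 21 gained one and 23 changed sign. The other filters, no robust moderation, the replicate block and the stricter threshold leave the difference itself unchanged. Under these settings only the call could change, so the counts of values that stayed overstate how stable the differences were. The causes of the changes were not tested.

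The median log2 difference of all tested genes was 0.12 as deposited, -0.16 after median centring, -0.13 after quantile normalization, -0.17 after rescaling to the total outside mitochondrially encoded rows and -0.01 with the GC trend removed. Of all genes 1911 were called higher and 1157 lower as deposited. The numbers were 1443 higher and 1891 lower after median centring, 1427 and 1761 after quantile normalization, 1322 and 1792 after rescaling, 1512 and 1397 with the GC trend removed, and 1523 and 1404 with GC and length trends removed. Without a filter 3171 were higher. Under a filter of 10 FPKM, again in 3 libraries, 468 were higher and 559 lower, and at a threshold of 0.01 656 were lower. Leaving out single libraries gave 1575 to 1959 higher and 819 to 1123 lower.

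Of the members 1 was higher and 6 lower as deposited. With the GC trend removed 2 were higher, likewise with GC and length trends removed, the added one being Sult2a8 (0.77 and 0.72). Under the filter of 10 FPKM 3 were lower, when only 5 members were tested, and at a threshold of 0.01 3 were lower. Leaving out single libraries gave 5 to 6 lower. Sult1d1 changed sign to 0.074 with the GC trend removed. Sult2a8 changed sign to -0.0061 after median centring, -0.0067 after quantile normalization and -0.10 after rescaling.

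Of the 30 tested sulfation genes outside the 10, 9 were higher and 7 lower as deposited. There were 14 higher without a filter and 2 under that filter, and 4 were higher after quantile normalization, with the GC trend removed, and with GC and length trends removed. The number lower was 3 under that filter and 12 with the GC trend removed. Genes without a call that changed sign were Sult1e1 (0.22, 0.060, 0.18 and 0.036 without knockout replicate 1, knockout replicate 2, wild type replicate 1 and wild type replicate 2, 0.43 with the GC trend removed, 0.051 with both removed), Got1 (0.062 without wild type replicate 2) and Cth (-0.14 after median centring, -0.23 after rescaling, -0.10 without wild type replicate 3). Leaving out single libraries, Sult1e1 ranged from -0.46 to 0.22, Got1 from -0.53 to 0.062 and Cth from -0.10 to 0.30. With the GC trend removed, and then with both removed, Papss1 was -0.10 and -0.17, Sumf1 -0.19 and -0.23, Hs3st3b1 -0.20 and -0.15, Hnf4a -0.14 and -0.094, and Ndst1 -0.45 and -0.33. Ndst1 was also -0.11 after median centring, -0.13 after quantile normalization and -0.13 after rescaling.

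Replicate numbers are shared between the groups, but correlations of the deviations of same-numbered libraries were -0.05, -0.10 and 0.18, so the numbers were not taken as a pairing. With the replicate block 1740 genes were higher and 1031 lower, 1 member was higher and 6 lower, and 9 and 7 of the other sulfation genes.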
